A study of Mus musculus with 12 samples.

Results

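The integrin and laminin subunit genes were followed across subcutaneous colorectal tumours of mice as 35 genes chosen by symbol, out of 17875 genes in the tables: 17 integrin alpha subunits, 8 integrin beta subunits and 10 laminin chains. RNA was sequenced from 12 libraries, 3 in each of 4 groups, and all 4 groups carried the tumour. The control group had the tumour alone, and the stress group was also under chronic stress. The low-dose group was stressed and received a low dose of Xiao-chai-hu decoction, a traditional herbal mixture, and the high-dose group was stressed and received a high dose. No group received the decoction without stress, and the labels give neither the doses, the tumour cell line, nor the strain, sex and age of the mice. Whether replicates are separate animals is not in the labels, and p-values therefore describe the spread among these libraries, which may be technical.

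Integrins are receptors in the cell membrane that each join 1 alpha and 1 beta subunit and tie the matrix outside the cell to its cytoskeleton. The alpha subunit largely sets what is bound: collagen, laminin, ligands carrying the RGD motif such as fibronectin and vitronectin, or partners on other cells. Laminins are secreted trimers of an alpha, a beta and a gamma chain that form the base sheet of basement membranes, where tumour cells, vessels and muscle fibres are anchored. Members of both families are studied in colorectal tumours for their part in attachment, invasion and survival signals.

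Totals ran from 16734741 to 17950195 estimated counts per library, and 30 of the 35 members passed the filter on low counts. Itgad, Itgb6, Itgb8, Lama1 and Lamc3 did not pass and were not tested. The tissue label was checked against 7 markers of colorectal epithelium, whose summed level was 12.9 to 29 CPM, the read count normalised to library size. Krt18 was at 0 in 11 of the 12 libraries and Krt8 in 7, and Epcam reached at most 0.813 CPM, so the defining keratins were at or near 0, while Cdh1 and Lgals4 were present in every library. The basal keratin gene Krt14 stood at 165 to 381 CPM without its partner Krt5, which was at 0 in 11 libraries. Transcripts of skeletal muscle set apart control replicate 1, low-dose replicate 3 and high-dose replicate 2, whose Acta1 levels were 64.2, 52 and 125 CPM against 0.117 to 8.22 CPM elsewhere. Low-dose replicate 2 also stood apart: its deviation from the mean library correlated with transcript length at -0.46 over the genes tested, against -0.15 to 0.24 in the others. The next lowest were low-dose replicate 3 at -0.15 and high-dose replicate 2 at -0.03. Leaving out low-dose replicate 2 therefore does not free the low-dose group of the length trends. The members tested are long, with a median of 5415 bases against 2669 over all genes tested. Values with each library's length trend removed are therefore given beside many of the results, though not beside all of them.

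Levels between genes were compared in TPM, which is scaled for length. Itgb1, the beta subunit shared by many alpha partners, was the most abundant member at 450.8 TPM on average over the 12 libraries. Itgb5, which pairs with alpha v, followed at 185 TPM, then the laminin chain Lamb1 at 148.2, Itgb7 at 135.9 and the laminin chain Lamc1 at 128.1 TPM. Among the alpha subunits, Itga3 (75.6 TPM, laminin-binding), Itga5 (71.2 TPM, the classical fibronectin receptor) and Itgav (59.8 TPM, RGD-binding) led. At the other end, Itgad, a leukocyte alpha subunit, was listed at 0 in 9 libraries and reached at most 0.09 TPM. Itgb6 and Itgb8, beta subunits that pair with alpha v and can activate TGF-beta, averaged 0.078 and 0.157 TPM, and Lama1, the alpha chain of early embryonic basement membranes, averaged 0.053 TPM.

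**Figure D1:**
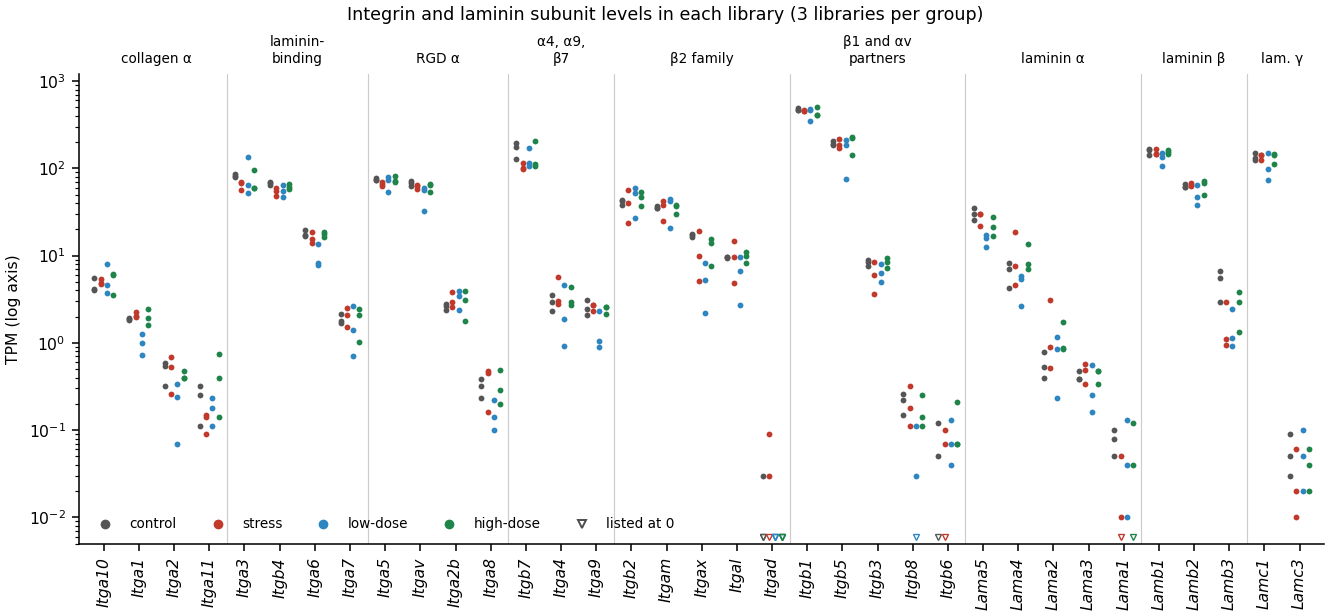
TPM of each of the 35 members (log axis) in every library, arranged by role and coloured by group; open triangles are libraries in which the gene was listed at 0. Levels ran from 450.8 TPM on average for Itgb1 to near 0 for Itgad, and most members lay at similar heights in the 4 groups.

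Within each role 1 gene led. Itgb1 stood at 468.6, 491.5 and 464.4 TPM in the control libraries, 449.3, 467 and 454.4 under stress, 482.4, 351 and 464 at the low dose, and 409.8, 403.5 and 503.5 at the high dose. It had the smallest ratio of highest to lowest library of the members, in TPM and in CPM, and the groups overlapped. Lamb1, a beta chain of most laminins, stood at 505, 489 and 447 CPM in control, 450, 452 and 511 under stress, 404, 398 and 523 at the low dose, and 487, 460 and 460 at the high dose. Lamc1, the gamma chain of most laminins, stood at 535, 614 and 525 CPM in control, 505, 584 and 584 under stress, 606, 373 and 457 at the low dose, and 574, 480 and 590 at the high dose. Both were lowest in low-dose replicate 2, the library with the strong length trend. Itga5 stood at 168, 180 and 172 CPM in control, 153, 161 and 147 under stress, 167, 155 and 208 at the low dose, and 158, 198 and 160 at the high dose. The stress libraries lay just below the controls, and both dose groups spanned the controls.

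Itga3, the leading laminin-binding alpha subunit, stood at 207, 200 and 222 CPM in control, 180, 143 and 176 under stress, 131, 207 and 391 at the low dose, and 151, 258 and 148 at the high dose. Its highest values in the treated groups were in low-dose replicate 3 and high-dose replicate 2, both rich in muscle transcripts, and their part in the level was not tested. Itgb2, the beta subunit of the leukocyte integrins, stood at 61.9, 61.5 and 56.3 CPM in control, 80.1, 57.9 and 34.7 under stress, 75, 49.2 and 96.2 at the low dose, and 67.8, 80.2 and 52.6 at the high dose. The stress and low-dose groups spanned the whole range. Itga10, a collagen receptor subunit known from cartilage, led its role at 10.8, 14.5 and 10.8 CPM in control, 12.7, 12.6 and 14.3 under stress, 21, 15.3 and 11.3 at the low dose, and 16.2, 9.76 and 15.4 at the high dose, with overlapping groups.

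Some subunits were far from equal to their partners. Itgb7 pairs with Itga4 and with Itgae, a gene outside the 35, yet its TPM was 17.7 to 125.8 times that of Itga4, and Itgae stood at 0.24 to 1.63 TPM. Summed beta chains exceeded summed laminin alpha chains 5.21-fold to 10.3-fold in every library. RNA levels do not give the amount of assembled receptor or trimer.

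The stress and control groups were set side by side for the effect of chronic stress without treatment. None of the 30 members passed at an adjusted p under 0.05 with edgeR's quasi-likelihood test and Benjamini-Hochberg adjustment, as for 0% of all 13453 genes tested, and the smallest adjusted p of a member was 1. At an unadjusted p under 0.05 stood 3 members (2.85% of all genes), all lower under stress (1.75% of all genes): Lamb3, Itgb4 and Itgb7. DESeq2 called 0 members here, and limma-voom called 0 members in every comparison. In bulk tissue, fewer cells of a type and less RNA per cell cannot be told apart, which holds throughout.

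Lamb3, the beta chain of the epithelial laminin that hemidesmosomes grip (chr1:193294353-193343878), stood at 6.09, 14 and 12 CPM in control, 1.98, 6.12 and 2.35 under stress, 1.91, 2.93 and 5.78 at the low dose, and 2.78, 6.47 and 7.78 at the high dose. Control held the 2 highest values, and stress replicate 2 reached the lowest control library. Stress differed from control by -1.62 on the log2 scale (SE 0.55, unadjusted p = 0.0125). Itgb4, the beta subunit of the hemidesmosome receptor (chr11:115974725-116008412), stood at 213, 225 and 211 CPM in control, 152, 190 and 179 under stress, 175, 191 and 236 at the low dose, and 183, 218 and 191 at the high dose. All 3 stress libraries lay below all 3 controls, with a log2 fold change of -0.32 (SE 0.13, unadjusted p = 0.0269).

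Itgb7, a beta subunit best known from lymphocytes that home to the gut (chr15:102215994-102233405), stood at 234, 172 and 263 CPM in control, 134, 153 and 132 under stress, 141, 195 and 260 at the low dose, and 140, 289 and 145 at the high dose. The stress libraries were again below all controls, while each dose group held values on both sides. Itgb7 differed by -0.68 on the log2 scale (SE 0.29, unadjusted p = 0.0403), and it was -0.45 with the muscle score as a covariate. With that covariate Lamb3 and Itgb7 stayed at an unadjusted p under 0.05 (2.33% of all genes), and Itgb4 did not. Over the 12 libraries Itgb7 was highest in high-dose replicate 2, one of the 3 rich in muscle transcripts. The 8 keratinocyte markers summed to 319 to 365 CPM in control and 178 to 295 CPM under stress, nearly all of it Krt14, and T and NK cell markers to 31.5 to 38.4 and 22.6 to 81.4 CPM; the part of either in these 3 genes was not tested.

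Libraries did not overlap between stress and control for 5 members (14.1% of all genes): Itgb4, Itgb7, Itga3 and Itga5 lay lower and Itga1 higher. Itga3 differed by -0.33 and Itga5 by -0.17 on the log2 scale. Lama2 and Lama4, alpha chains of muscle and vessel basement membranes, had log2 fold changes of 1.40 (SE 0.70) and 0.67 (SE 0.48), which rested on stress replicate 3. In it Lama2 stood at 16.4 CPM and Lama4 at 60.8 CPM, against 2.68 to 4.72 and 14.7 to 24.4 CPM in the other stress libraries. Without stress replicate 3 the values were 0.29 for Lama2 and -0.10 for Lama4. That library also had the highest sum of 6 mast cell markers, 24.2 CPM against 4.07 to 9.74 CPM in the other control and stress libraries, and the highest sums of 7 endothelial markers (112 against 51.6 to 104 CPM) and 6 fibroblast markers (13000 against 5400 to 10200 CPM). The fibroblast sum was nearly all Col3a1, at 12000 CPM in stress replicate 3. Col1a1 and Lum were also highest there among control and stress libraries, but Dcn, Dpt and Pdgfra were higher in another stress library. The part of any of these markers in the 2 laminin chains was not tested.

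**Figure D2:**
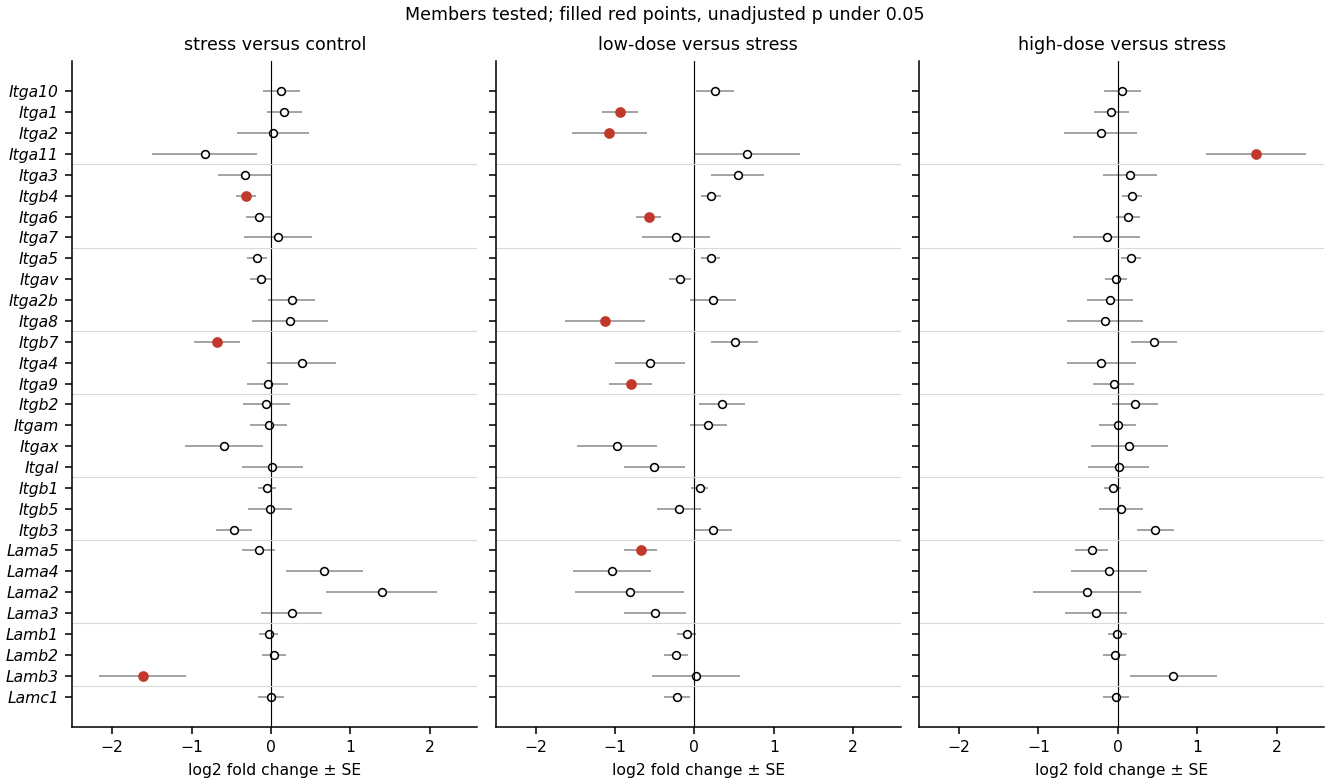
Log2 fold change of each of the 30 members tested, with its SE, for stress against control and for each dose against stress (3 libraries per group); filled points have an unadjusted p under 0.05. No member passed after adjustment, and the middle panel holds the most filled points, 6, all on the lower side, where with length trends removed 3 members were lower and 2 higher at that threshold.

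The low-dose group was compared with stress to ask what the decoction did under stress. None of the 30 members passed (adjusted p under 0.05 in 0% of all genes), and the smallest adjusted p was 0.295, for Itga1. At an unadjusted p under 0.05 stood 6 members, against 13.4% of all genes, and all 6 were lower: Itga1, Itga6, Lama5, Itga9, Itga2 and Itga8. In that direction 6.55% of all genes reached this threshold and 20% of the members tested. With length trends removed the split was 3 lower (Itga1, Itga6 and Itga9) and 2 higher, against 3.41% and 4.91% of all genes. The 2 higher were Itgb4 at 0.40 (unadjusted p = 0.0144) and Itga5 at 0.31 (unadjusted p = 0.0229), and Itga2, Itga8 and Lama5 were no longer under the threshold. Without low-dose replicate 1 it was 10 lower and 3 higher of 31 members tested, against 14.6% and 13.8% of all genes. DESeq2 called 1 member, Itga1, among 95 genes, with adjusted p = 0.036, and over all alternatives the adjusted p of Itga1 ran from 0.036 to 0.732. Low-dose libraries lay wholly below stress for 4 members (6.57% of all genes, and 11.9% in either direction): Itga1, Itga6, Itga9 and Lama5.

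Itga1, the alpha subunit of a collagen receptor of stroma and muscle (chr13:114958079-115101964), stood at 5.91, 6.16 and 5.89 CPM in control, 7.23, 6.53 and 6.42 under stress, 3.15, 2.87 and 4.52 at the low dose, and 5.05, 8.05 and 5.98 at the high dose. The 3 low-dose libraries were the lowest of all 12. Against stress Itga1 differed by -0.94 on the log2 scale (SE 0.23, unadjusted p = 0.00136), -0.76 with length trends removed and -1.16 without the 3 libraries rich in muscle transcripts. Its neighbour Itga2, another collagen receptor subunit and separated from it by 26.0 kb, was a low-count gene that ranged from 0.345 CPM in low-dose replicate 2 to 2.57 CPM in stress replicate 1. Its log2 fold change was -1.07 (SE 0.47), and -0.68 without low-dose replicate 2.

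Itga6, the alpha partner of Itgb4 and a laminin receptor subunit (chr2:71786886-71858427), stood at 54.5, 62.2 and 54.6 CPM in control, 44.4, 49.8 and 59.8 under stress, 42.6, 32.8 and 27.9 at the low dose, and 56.2, 62 and 50.2 at the high dose. Here too the low-dose libraries were the 3 lowest of the 12, the highest of them just below stress replicate 1. Against stress the log2 fold change was -0.57 (SE 0.16, unadjusted p = 0.00344), and -0.40 with length trends removed. Itgb4 did not share it, at a log2 fold change of 0.20, or 0.40 with length trends removed. The TPM ratio of Itgb4 to Itga6 was 4.06, 5.74 and 8.36 at the low dose and 2.97 to 3.90 in the other 9 libraries, and the transcripts have nearly the same length, 5744 and 5713 bases.

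Itga9, a subunit that binds tenascin C and VCAM-1 (chr9:118606709-118901003), stood at 11.1, 9.01 and 7.87 CPM in control, 9.62, 8.16 and 9.45 under stress, 7.92, 3.45 and 4.21 at the low dose, and 8.83, 8.29 and 9.12 at the high dose. Low-dose replicate 1 lay just above the lowest control, and the other low-dose libraries were well below it. Against stress Itga9 had a log2 fold change of -0.80 (SE 0.27, unadjusted p = 0.0106). It was -1.24 without low-dose replicate 1, a setting in which Itga9 and Itga6 passed with adjusted p = 0.0181 and 0.0222 by edgeR among 1244 genes, and -0.57 without low-dose replicate 2. Over all alternatives tried, the adjusted p in this comparison ran from 0.0181 to 0.732 for Itga9 and from 0.0222 to 0.732 for Itga6, and none but that one was under the threshold.

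**Figure D3:**
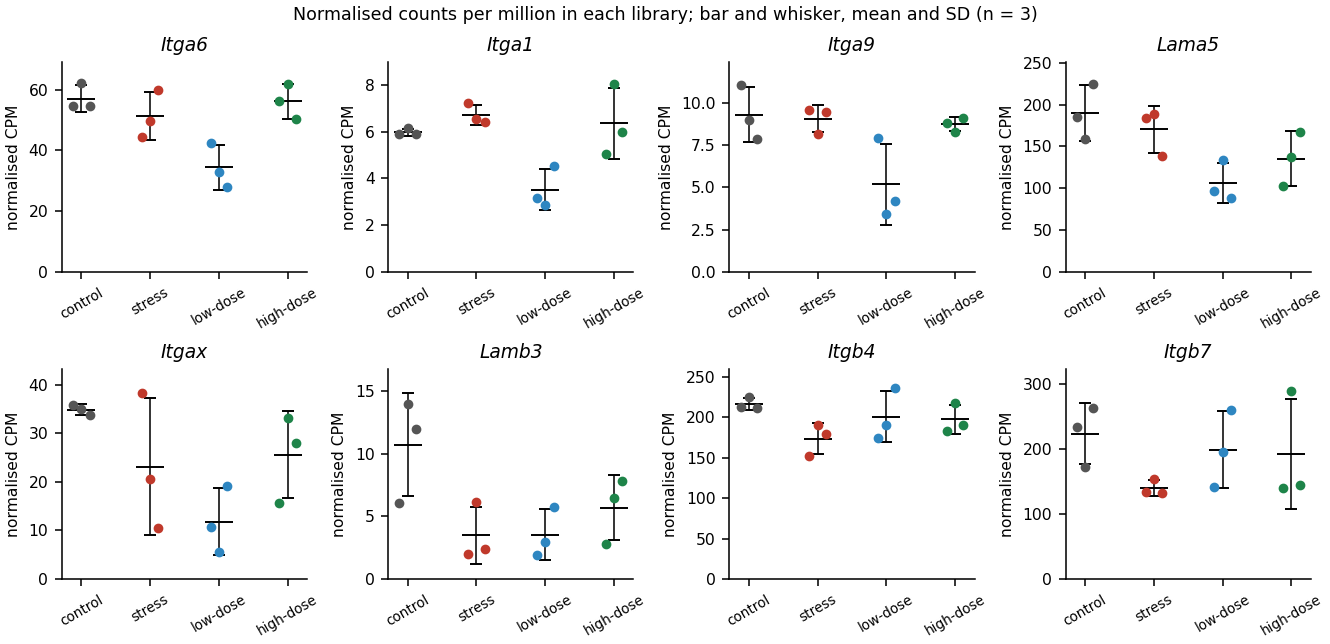
Normalised CPM of 8 members in every library by group, with the mean and SD of 3 libraries. The low-dose points of Itga1 and Itga6 are the lowest of the 12 libraries. For Itgb4 and Itgb7 the group mean is lowest under stress, though single libraries of both dose groups lie among the stress points. Lamb3 spreads widely within groups, and Itgax within every group but control.

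Lama5, the main laminin alpha chain of epithelial and vessel basement membranes (chr2:180176373-180225904), stood at 185, 159 and 225 CPM in control, 184, 189 and 138 under stress, 96.9, 134 and 88.6 at the low dose, and 102, 137 and 167 at the high dose. The low-dose libraries lay below the other groups apart from high-dose replicate 1, which stood between them. The log2 fold change against stress was -0.68 (SE 0.21, unadjusted p = 0.00733). Lama5 has the longest transcript of the members, 11133 bases, and with length trends removed the value was -0.33 (unadjusted p = 0.234). Without low-dose replicate 2, the library with the strongest trend, it was -0.87, with low-dose replicate 3 and its trend (-0.15) kept.

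The 4 laminin alpha chains tested were all lower at the low dose than under stress, with a median log2 fold change of -0.75, or -0.41 with length trends removed and -0.26 without stress replicate 3. The 7 endothelial markers summed to 57.9 to 112 CPM under stress and 48.3 to 81.6 CPM at the low dose, 6 of them had a log2 fold change below 0 with a median of -0.36, none was at 0 in every library, and their part was not tested. The laminin alpha chains' summed level was 34.2 to 40.5 TPM in control, 35.7 to 44.2 under stress, 18.6 to 23.0 at the low dose and 30.8 to 35.9 TPM at the high dose. All 3 low-dose sums were below all others. These sums have no length trend removed, and the part of the trends in them was not tested. Lama5 made up 49.6% to 87.5% of the sum. Lama4 had a log2 fold change of -1.04 (SE 0.49), but -0.26 without stress replicate 3, and Lama2 had -0.82, but 0.31 without it. The main beta and gamma chains, Lamb1, Lamb2 and Lamc1, had low-dose and stress libraries that overlapped.

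**Figure D4:**
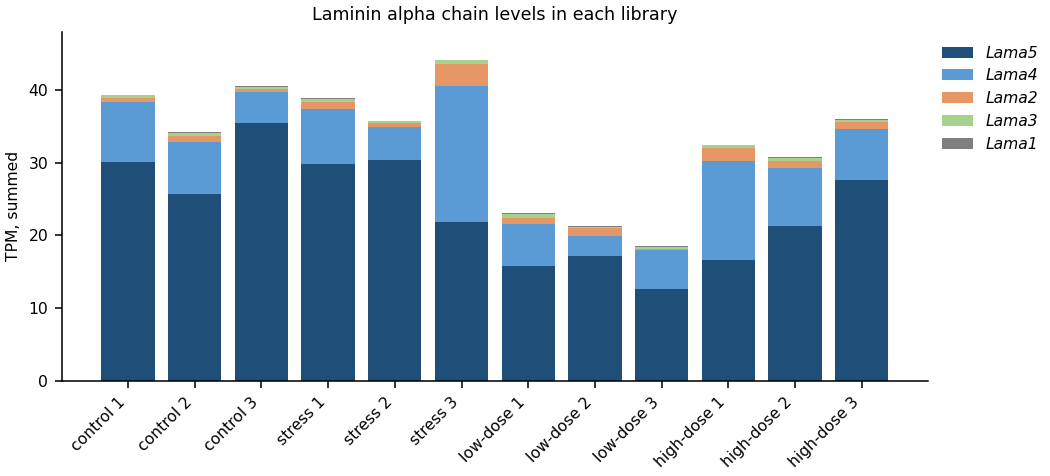
Summed TPM of the laminin alpha chains in each library, split by chain (bars stacked from 0), without removal of length trends. The low-dose bars end at 18.6 to 23.0 TPM and all others at 30.8 TPM or more; the Lama4 share is largest in stress replicate 3.

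The stretches before the start sites of Itga1 and Lama5, as RefSeq lists them (GRCm38.p6), are shown as the promoters of 2 of the 4 genes that lay wholly lower. Itga1 was taken from chr13:115101965-115102214 and Lama5 from chr2:180225905-180226109, both on the minus strand and outside the annotated gene, written 5' to 3'. Capitals mark GC boxes (GGGCGG on either strand), the site class bound by SP1-type factors.
Itga1: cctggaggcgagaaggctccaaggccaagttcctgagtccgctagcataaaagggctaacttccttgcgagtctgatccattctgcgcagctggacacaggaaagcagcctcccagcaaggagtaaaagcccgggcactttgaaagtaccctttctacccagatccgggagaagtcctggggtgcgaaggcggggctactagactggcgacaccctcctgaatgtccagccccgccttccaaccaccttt
Lama5: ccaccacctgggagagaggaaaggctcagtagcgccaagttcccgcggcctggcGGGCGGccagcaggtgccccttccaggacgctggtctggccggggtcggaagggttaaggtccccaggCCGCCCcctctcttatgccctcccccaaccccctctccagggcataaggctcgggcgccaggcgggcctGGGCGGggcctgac
The Lama5 stretch, cut to 205 bases, was 71.7% G and C with 3 GC boxes, and the Itga1 stretch of 250 bases 57.6% with none. The median over the 250-base stretches of all promoters was 52.4%. Of 250-base stretches, 32.7% of 32851 promoters held a GC box, and 9 of the 26 listed for 23 members did. The TATA box (TATAAA, either strand) was in 12.4% of all promoters and in 0 of the 26, and CCAAT (either strand) in 33.8% and in 4 of the 26. Neither was in the stretches shown. The windows carry no measurement in these data.

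Over all 30 members the median log2 fold change of low dose against stress was -0.21, with 18 below 0 (50.1% of all genes), while the median over all genes was 0.00. Across the members, log2 fold change and log2 transcript length correlated at -0.53 (30 genes from the same libraries, not independent), against -0.31 over all genes tested. With length trends removed the members' median was -0.03, and it was also -0.03 without low-dose replicate 2. Integrins on the higher side included Itga3 at 0.55, which was 0.02 without low-dose replicate 3.

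**Figure D5:**
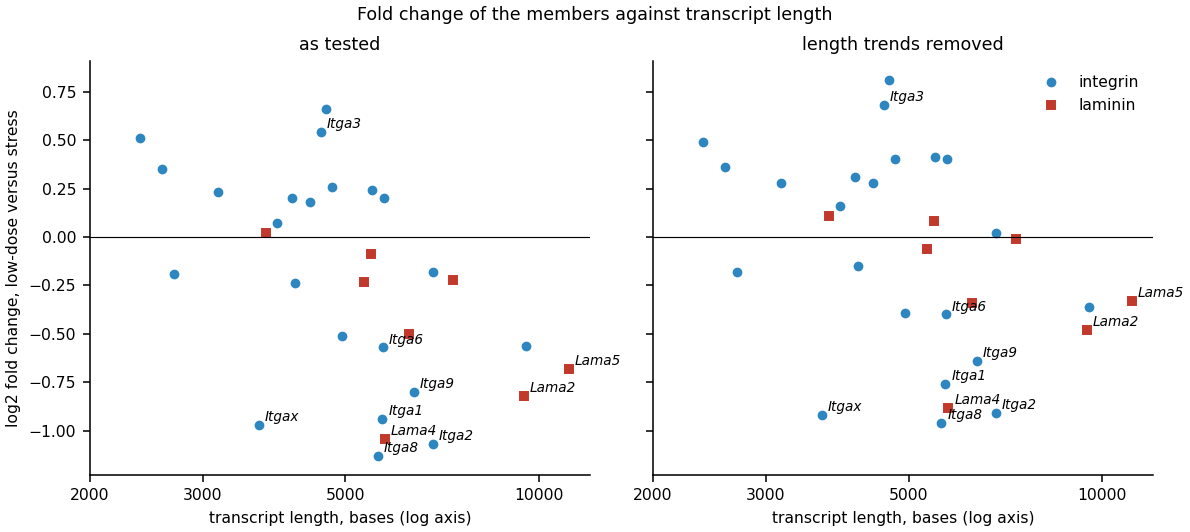
Log2 fold change of low dose against stress for the 30 members against transcript length (log axis), as tested and with each library's length trend removed. The 3 longest members, Lama5, Itga4 and Lama2, move toward 0 in the right panel, from -0.68 to -0.33, from -0.56 to -0.36 and from -0.82 to -0.48, and Itga1, Itga6 and Itga9 stay between -0.76 and -0.40.

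The high dose was set against stress in the same way. None of the 30 members passed (0% of all genes), and 1 member had an unadjusted p under 0.05 (1.42% of all genes, and 0.825% on the higher side): Itga11, an alpha subunit that binds fibrillar collagen on fibroblasts (chr9:62677855-62783979). It stood at 0.293, 0.639 and 0.841 CPM in control, 0.35, 0.233 and 0.401 under stress, 0.281, 0.747 and 0.542 at the low dose, and 1, 2 and 0.349 at the high dose. Only 2 of the high-dose libraries were above the rest, and the groups overlapped. High dose differed from stress by 1.74 on the log2 scale (SE 0.63, unadjusted p = 0.0174), and 1.03 without high-dose replicate 2. DESeq2 called 0 members. The gene averaged 11 counts per library, so counting noise alone is large.

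Itgb3, the beta subunit of the platelet and endothelial vitronectin receptors (chr11:104608000-104670476), stood at 26.8, 25.9 and 23.7 CPM in control, 18.1, 26.1 and 11.2 under stress, 24.2, 19.1 and 21.9 at the low dose, and 25.6, 23 and 28.2 at the high dose. The stress group held both the lowest values and 1 as high as control. The log2 fold change of high dose against stress was 0.47 (SE 0.23, unadjusted p = 0.0631), and 0.22 without stress replicate 3. It was 0.51 with length trends removed (unadjusted p = 0.0387), so that 2 members were then under the threshold (1.93% of all genes). Lama5 differed by -0.33 (SE 0.21) here, and for 0 members did the libraries of the 2 groups not overlap (5.75% of all genes). The members' median was -0.01.

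The direct comparison of the doses shares the low-dose libraries with the comparison above, so the 2 sets of values are not independent. None of the 30 members passed (0% of all genes), with 0.758 as the smallest adjusted p. At an unadjusted p under 0.05 stood 4 members (6.39% of all genes), all higher at the high dose (2.75% of all genes). These were Itga6 at 0.70 (SE 0.16, unadjusted p = 0.000788), Itga1 at 0.86 (SE 0.23), Itga9 at 0.75 (SE 0.27) and Itgax at 1.12 (SE 0.50). After removal of length trends 3 members were higher and 1 lower, against 1.72% and 2.16% of all genes: Itgax was at unadjusted p = 0.0528, and Itgb1 stood at -0.21 (unadjusted p = 0.0351). Without low-dose replicate 1 there were 6 higher and 1 lower, against 10.9% and 11.2% of all genes. Without low-dose replicate 1, Itga6 and Itga9 passed by edgeR, both with adjusted p = 0.0435, among 99 genes, and over the alternatives the adjusted p of each ran up to 1. DESeq2 called 0 members. High-dose libraries lay wholly above low-dose ones for 5 members (4.16% of all genes, and 7.34% in either direction): Itga1, Itga2, Itga6, Itga9 and Lama4. The members' median was 0.23, with 21 above 0 (50.8% of all genes). It was 0.08 with length trends removed and 0.04 without low-dose replicate 2.

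Itgax, the alpha subunit CD11c of dendritic cells and some macrophages (chr7:128129526-128150657), stood at 35.9, 35 and 33.7 CPM in control, 38.3, 20.6 and 10.5 under stress, 10.6, 5.52 and 19.2 at the low dose, and 15.7, 33.2 and 27.9 at the high dose. The control libraries were close together and the stressed groups spread widely. The 6 other dendritic cell markers summed to 21.2 to 25.9 CPM in control, 21.4 to 27.9 under stress, 12.3 to 21.4 at the low dose and 23.8 to 29.5 at the high dose, with no marker at 0 in every library. Their part in the Itgax values was not tested. Itgam, the alpha subunit CD11b that lies 11034 bases from Itgax, ran from 61.9 to 125 CPM and its beta partner Itgb2 from 34.7 to 96.2 CPM, both lowest in stress replicate 3 and highest in low-dose replicate 3. Itgb2 was 0.91 to 1.05 times the summed TPM of its 4 alpha partners at the low dose and 0.60 to 0.87 times in the other 9 libraries. Its transcript, 2592 bases, is shorter than those of Itgax, Itgam and Itgal, at 3669, 4403 and 4937 bases. The part of the length trends in this ratio was not tested.

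Low dose was also set against the unstressed control. None of the 30 members passed (0% of all genes), and 0.316 was the lowest adjusted p. There were 7 members with an unadjusted p under 0.05, against 13.2% of all genes, all lower (6.73% of all genes). Itga6 differed by -0.73 (SE 0.16, unadjusted p = 0.000604) and Lama5 by -0.83 (SE 0.21, unadjusted p = 0.00191). Both were called by DESeq2, with adjusted p = 0.0208 and 0.0462, among 71 genes, and over the alternatives the adjusted p ran up to 0.721 for Itga6 and 0.736 for Lama5. Itga1 stood at -0.77 (SE 0.23), Itga9 at -0.84 (SE 0.27), Itgax at -1.57 (SE 0.50), Lamb3 at -1.59 (SE 0.55) and Itga2 at -1.05 (SE 0.47). With length trends removed 5 members were lower and 1 higher at this threshold, against 3.55% and 3.92% of all genes: Lama5 (-0.48, unadjusted p = 0.0935) and Itga2 (unadjusted p = 0.078) were no longer under it, and Itga10 was, at 0.54 (unadjusted p = 0.034). Itga6 was then at -0.54. Low-dose libraries lay wholly below control for 6 members (9.74% of all genes, and 17.4% in either direction): Itga1, Itga6, Itga8, Itgax, Lama5 and Lamb3. Of the 30 members 22 were below 0 (49.5% of all genes), with a median of -0.20, and of -0.04 with length trends removed.

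High dose against control again had 0 members that passed (0% of all genes). Only Lama5 had an unadjusted p under 0.05 (1.04% of all genes, and 0.461% on the lower side), at -0.48 (SE 0.21, unadjusted p = 0.0391), and its groups overlapped. Lama5 was at -0.42 with length trends removed (unadjusted p = 0.139), and 0 members were under the threshold. By DESeq2 the count was also 0. Libraries did not overlap for 2 members (8.7% of all genes): Lama2 was higher, at 1.01 (SE 0.70), and Itgax lower, at -0.45. Lamb3 stood at -0.91 (SE 0.53) and Itga11 at 0.91 (SE 0.60), which was -0.13 without the 3 libraries rich in muscle transcripts. A test of any difference among the 4 groups called 0 members (0% of all genes). At an unadjusted p under 0.05 it held 5 members (6.53% of all genes): Itga1, Itga6, Itga9, Lama5 and Lamb3.

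Genes that act with integrins and laminins were read as 4 lists with 70 genes tested, and 0 of them passed in any comparison. Among activators and adaptors that link integrins to actin, Vcl, which encodes vinculin, had a log2 fold change of -0.52 (SE 0.11, unadjusted p = 0.000362) at the low dose against stress and 0.43 at the high against the low dose. Tns4, a tensin of epithelial cells, stood at 1.45 (SE 0.41) at the low dose against stress and -0.89 under stress against control. In this list 3 of 33 genes tested were higher and 3 lower at an unadjusted p under 0.05 at the low dose against stress, where 6.8% of all genes were higher and 6.55% lower. Of the other basement membrane genes, Ntn4, a netrin that binds laminin networks, stood at -0.84 (SE 0.19, unadjusted p = 0.000891) under stress and 0.45 (SE 0.19) at the high dose against stress. Agrn and Dag1, which encode agrin and the laminin receptor dystroglycan, stood at -0.44 (SE 0.18) and -0.35 (SE 0.14) at the low dose against stress. With length trends removed in that comparison Vcl was at -0.37, Tns4 at 1.57, Agrn at -0.24 and Dag1 at -0.20.

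Of the 4 hemidesmosome genes listed beside Itga6 and Itgb4, Dst stood at -0.48 (SE 0.17) and Plec at -0.28 (SE 0.15) at the low dose against stress. Both encode long linker proteins of the plakin family. With length trends removed Dst and Plec were at -0.17 and 0.04. The other genes of the list, Col17a1 and Cd151, were on the higher side as tested. At an unadjusted p under 0.05 stood 1 of the 4 genes of that list, Dst. Among other integrin ligands, Tnc, which encodes the Itga9 ligand tenascin C, stood at 2.55 (SE 0.79, unadjusted p = 0.00869) at the low dose against stress, and Vcam1, another ligand of Itga9, at -0.59 (SE 0.20). Fn1, fibronectin, stood at 0.48 (SE 0.21) under stress against control. The medians of the 4 lists at the low dose against stress were -0.02, 0.04, -0.11 and 0.21 in the order given, beside 0.00 over all genes.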

How the data were processed

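RNA was sequenced from 12 tumour libraries. Per the labels' protocols, total RNA was selected for poly(A) and made into dUTP-marked stranded libraries. Per the submitters' processing notes, the authors used cutadapt 1.9, HISAT2 2.0.4, StringTie 1.3.4d, DESeq2 and edgeR with GRCm38.p6; the annotation, counting options and filters are not given in the sources used here. The deposited estimated counts are the authors' values per gene without further scaling. Of all values in a library, zeros included, 11.7% to 12.5% were not whole and were rounded here. Whole counts had been assumed when the tests were chosen. FPKM values, deposited by the authors with scaling for length and depth, were used with the counts to derive transcript lengths. TPM values, also deposited by the authors, gave levels between genes.

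Groups were compared with edgeR 4.0.16 (R 4.3.3), quasi-likelihood test, TMM factors and filterByExpr with a minimum count of 10, in 1 model of the 4 groups with 8 residual degrees of freedom. p-values were 2-sided and adjusted by Benjamini-Hochberg over 13453 genes, with a threshold of 0.05. The median SE was 0.164. Tested on simulated data for stress against control, 200 of 13392 genes changed, the fit called 7.81% at 1.5-fold, 60.9% at 2-fold and 98.5% at 4-fold, with 4 false calls. The simulation gave every gene the same dispersion and held no length trends or muscle-rich libraries. Members with an SE well above the median can therefore be called less often than these shares. Replicate pairs had dispersion indices of 5.58 to 65.7, so none agreed within counting noise. Length trends were removed by offsets from a loess fit (span 0.3).

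The members and lists were chosen with earlier results of these data known. Values in every library are given for members that passed, the 3 with the smallest p in each comparison and the most abundant of each role; of the other lists, the 2 genes with the smallest p were eligible. Members named only with length trends removed (Itga5, Itga10, Itgb1, Itgb4) or for their length (Itga4) were chosen after their values were seen. Alternatives were DESeq2 1.42.0, limma-voom (limma 3.58.1), RLE factors, no filter or a minimum count of 50, only the groups compared, a replicate block, length offsets, a muscle score, omission of the 3 muscle-rich libraries, and each library left out in turn. Marker lists (16, with 108 entries) were read as summed CPM. Promoters came from RefSeq.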

Additional observations from a re-analysis of the deposited data

How the results depend on the processing

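With edgeR's quasi-likelihood test no member was called in any comparison at an adjusted p under 0.05, and the same held with RLE factors, length offsets, either other filter, the muscle score, omission of the 3 libraries rich in muscle transcripts, only the groups compared, and limma-voom. DESeq2 called 1 member in low dose against stress, 2 in low dose against control and 1 in the test among 4 groups (Itga6), and 0 elsewhere. With 1 library left out in turn, the members called ranged from 0 to 2 in low dose against stress, in high against low dose and in low dose against control; the 2 were Itga6 and Itga9 without low-dose replicate 1 in each case. Among the 47 pairs of a member and a comparison followed under every alternative, which include every member with an unadjusted p under 0.05 in the edgeR comparisons of 2 groups, direction turned in 3 values: Lama4 under stress was at -0.10 and Lama2 at the low dose against stress at 0.31 without stress replicate 3, and Itga11 at the high dose against control at -0.13 without the 3 libraries rich in muscle transcripts. These came with fewer libraries, and the cause was not tested. With each library left out in turn, the first ranged from -0.10 to 1.03 and the second from -1.42 to 0.31. Of 1072 values for these pairs, 1060 kept direction and side of the threshold, 9 passed it and 3 turned. Over all members tested, 243 of 4113 values turned, 19 of them with length trends removed; 0 of the 243 had an unadjusted p under 0.05 in the edgeR test reported. Counts of members at that threshold ranged, with 1 library left out, from 2 to 5 under stress, 4 to 13 at the low dose and 0 to 2 at the high dose against stress, 3 to 7 between doses, and 6 to 10 and 0 to 2 for low and high dose against control. A replicate block called 0 members in every comparison; the numbers share no known animal, same-number correlations ran from -0.45 to 0.42, and 5 of 12 libraries correlated best with their own number. With 3 libraries a group, differences near 1.5-fold were seldom detectable, and Itga11, Itga8, Lama3 and Itga2 rest on means of 11 to 26.8 counts.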
